A study of Mus musculus with 8 samples.

Results

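Pulmonary surfactant genes were followed here through 8 RNA sequencing libraries of sorted mouse lung epithelial cells. They were taken by symbol: the surfactant protein genes Sftpc, Sftpb, Sftpa1 and Sftpd, the protease genes Napsa and Ctsh, and the lamellar body and lipid genes Abca3, Lamp3, Slc34a2 and Lpcat1. Each symbol matched 1 Ensembl gene, so 10 of the 43432 genes in the count table are described, and all 10 passed the filter on low counts that left 14906 tested genes. All cells came from lungs of C57BL/6J mice 14 weeks old and carried EpCAM, an epithelial surface protein, without CD45, the common leukocyte surface protein. C/C libraries (n = 2) came from mice with both copies of ChiaRed, a reporter of the acidic mammalian chitinase gene Chia1, and C/+ libraries (n = 3) from mice with 1 copy; in both, only the ChiaRed+ cells of the gate were taken. WT libraries (n = 3) came from mice without the reporter and held the whole gate. The sort therefore differed between reporter and WT libraries as well as the genotype, and these cannot be told apart. The labels do not say that replicates came from separate animals, so p-values measure the spread between these libraries, which may in part be technical.

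Surfactant is a film of phospholipid and protein that lowers surface tension at the air side of the alveolus. Alveolar type 2 cells make it, store it in lamellar bodies, which are organelles related to lysosomes, and secrete it. The hydrophobic surfactant proteins B and C are cut from longer precursors on the way to the lamellar body and spread the lipid, whereas the collectins A and D are secreted lectins that bind microbial sugars.

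Total counts were 17057216 to 52319957 per library. Levels are given as CPM, counts relative to the library total scaled by TMM (trimmed mean of M values, factors of 0.9148 to 1.064). Levels of different genes are compared only as TPM, which also divides by exon length. Chia1 stood at 1.45 and 0.365 CPM in C/C, against 223 to 341 CPM in C/+ and 267 to 454 CPM in WT. The C/C libraries thus held almost no Chia1 transcript, and comparisons of C/C differ in Chia1 level as well as in reporter copies. Epcam lay between 157 and 202 CPM and Ptprc, which encodes CD45, at no more than 1.80 CPM in all 8 libraries. Xist exceeded the Y-linked genes in 2 of 2 C/C, 2 of 3 C/+ and 1 of 3 WT libraries, so sex was not balanced between groups. As sex differed within C/+ and within WT, the libraries of either group did not all come from the same animals. In bulk RNA, fewer cells of a type and less RNA per cell cannot be told apart. One WT library, WT 1, stood apart: short transcripts were low and long transcripts high in it. WT 1 was also the 1 WT library in which Xist exceeded the Y-linked genes, as in both C/C libraries. Without WT 1, sex and group therefore cannot be told apart in C/C against WT. Fitted log2 fold changes of the surfactant genes against WT that moved by over 1.5 times without WT 1 are given both ways. So are calls of named genes against WT that were lost without WT 1. Other values against WT, such as shares, ratios and medians, are not all given without WT 1.

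Promoter sequence from RefSeq (GRCm38.p6, 250 bases before the start) was at hand for 6 of the 10 genes: Sftpb, Sftpa1, Abca3, Lamp3, Slc34a2 and Lpcat1. Shown here are a surfactant protein pair, Sftpb and Sftpa1, and the pair Abca3 and Slc34a2, whose levels were below those of WT in every C/C and C/+ library. Capitals mark matches, on either strand, to 6 short motifs: the NKX2-1 core TCAAG, the C/EBP motif TTGCNNAA, the FOXA motif TGTTTNC, the GC box GGGCGG, the TATA box TATAAA and CCAAT.
Sftpb chr6:72304360-72304609, plus strand: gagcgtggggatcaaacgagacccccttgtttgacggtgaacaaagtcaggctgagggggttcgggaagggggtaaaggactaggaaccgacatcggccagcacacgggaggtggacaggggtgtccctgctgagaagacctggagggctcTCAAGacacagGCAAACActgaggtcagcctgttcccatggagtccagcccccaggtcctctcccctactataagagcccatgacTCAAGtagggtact
Sftpa1 chr14:41131538-41131787, plus strand: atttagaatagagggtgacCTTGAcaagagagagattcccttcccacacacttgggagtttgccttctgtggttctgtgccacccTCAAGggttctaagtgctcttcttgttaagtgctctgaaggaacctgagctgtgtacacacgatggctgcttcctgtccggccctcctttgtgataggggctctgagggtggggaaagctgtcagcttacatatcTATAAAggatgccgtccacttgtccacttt
Abca3 chr17:24351773-24352022, plus strand: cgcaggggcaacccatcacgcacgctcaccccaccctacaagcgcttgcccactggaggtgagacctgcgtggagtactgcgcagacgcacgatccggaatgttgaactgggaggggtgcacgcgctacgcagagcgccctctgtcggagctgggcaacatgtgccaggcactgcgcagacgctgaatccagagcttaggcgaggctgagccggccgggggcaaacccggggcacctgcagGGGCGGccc
Slc34a2 chr5:53049103-53049352, plus strand: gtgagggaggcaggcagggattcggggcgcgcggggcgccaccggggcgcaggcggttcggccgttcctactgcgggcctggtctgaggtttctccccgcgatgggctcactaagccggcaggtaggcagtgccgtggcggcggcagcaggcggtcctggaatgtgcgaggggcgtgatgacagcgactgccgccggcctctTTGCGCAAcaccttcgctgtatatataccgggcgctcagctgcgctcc

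NKX2-1 is the transcription factor that specifies lung epithelium, and C/EBP and FOXA factors act with it in type 2 cells. Positions count the first base of a match from the RefSeq start. That start lies inside the span of the Ensembl gene for Sftpa1, Abca3, Lamp3, Slc34a2 and Lpcat1, farthest in for Slc34a2. The NKX2-1 core was found at -99 and -14 in Sftpb and at -231 and -165 in Sftpa1. It was in none of the other 4 promoters. The share of the 6 promoters that hold it was close to that of all 32851 RefSeq windows of this length, 35.9%. Sftpb also had a FOXA match at -88 and Sftpa1 a TATA box at -30, motifs that 17.8% and 12.4% of windows hold. Abca3 had a GC box at -9 (32.7% of windows) and Slc34a2 a C/EBP match at -48 (9.56% of windows). The first pair had 58.4% and 50% G and C, and the second pair 67.6% and 69.6%, against a mean of 53.2% over all windows. Lamp3 had FOXA matches at -162 and -92, and Lpcat1 GC boxes at -48 and -13. A match is a description of the letters and no sign of binding.

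Surfactant transcripts dominated every library. Per length, Sftpc, a single small membrane protein gene, was the most abundant gene in all 8 libraries, at a mean of 313382 TPM (282810 to 339362), which is the largest part of the 36.3% to 40.3% of TPM that the 10 genes held together. Sftpb followed at 29546 TPM and Sftpa1 at 20166 TPM, and by counts these 2 genes held ranks 3 and 4 in every library. The order below them was Slc34a2 at 5762 TPM, Sftpd at 4935 TPM, Napsa at 2499 TPM, Lamp3 at 2072 TPM, Lpcat1 at 1348 TPM, Abca3 at 736 TPM and Ctsh at 593 TPM. Neighbours in this order were separate in all 8 libraries for Sftpc over Sftpb, Sftpb over Sftpa1, Sftpa1 over Slc34a2, Sftpd over Napsa and Lpcat1 over Abca3. Slc34a2 was above Sftpd in 6 of 8 libraries, Napsa above Lamp3 in 7 of 8 and Abca3 above Ctsh in 6 of 8, so these 3 pairs are not ordered beyond the spread. Lamp3 was above Lpcat1 in 8 of 8 libraries although their ranges overlapped.

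None of the 10 genes passed the test in any comparison. The count of called genes was 0 in C/C against WT, 0 in C/C against C/+ and 0 in C/+ against WT by edgeR's quasi-likelihood test at a Benjamini-Hochberg adjusted p under 0.05. The same test called 2.98%, 7.08% and 3.92% of all 14906 genes. At an unadjusted p under 0.05 the members numbered 3, 1 and 2, against 22.1%, 20.9% and 20.1% of all tested genes. DESeq2's Wald test called 3 of them (Sftpc, Sftpa1 and Abca3) in C/C against WT, 0 in C/C against C/+ and 1 (Abca3) in C/+ against WT. It also called more of all 14906 genes than edgeR did: 1476, 1609 and 1263 in these comparisons. The 95% intervals of all 30 fitted folds lay between 0.664 and 1.66, so a doubling or a halving of any of the 10 genes lies outside them. The median log2 fold change of the members was 0.12, 0.13 and -0.06, against -0.03, -0.01 and 0.00 for all tested genes.

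**Figure D1:**
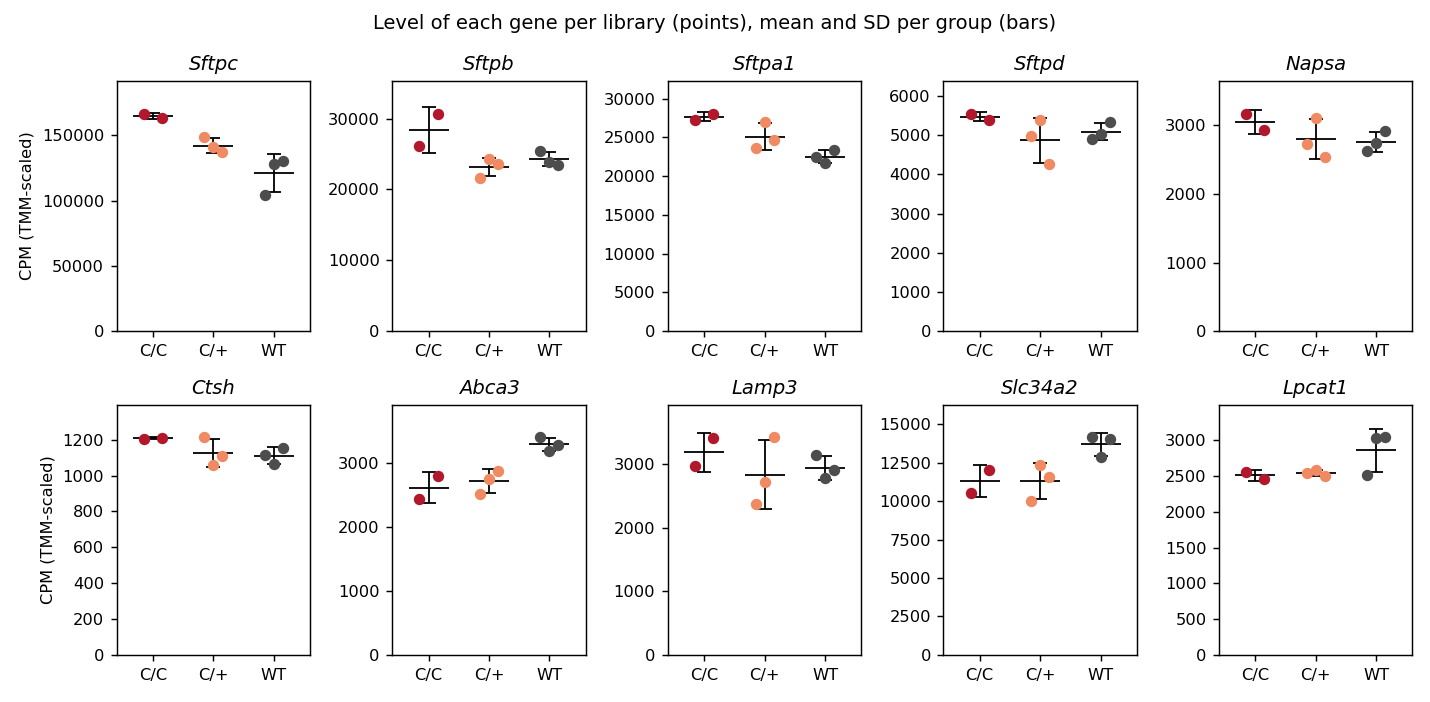
Level of each of the 10 genes in CPM (TMM-scaled, y axis from 0) in C/C (n = 2), C/+ (n = 3) and WT (n = 3) libraries; points are libraries and bars the mean and SD. Sftpc and Sftpa1 points lie higher in C/C than in WT, and Abca3 and Slc34a2 points lie lower in C/C and C/+ than in WT, without overlap.

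Sftpc encodes surfactant protein C, made in the lung almost only by type 2 cells (ENSMUSG00000022097, chromosome 14, 70520949 to 70524081, minus strand of GRCm38). It stood at 166725 and 163513 CPM in C/C, at 148570, 141116 and 137228 CPM in C/+, and at 104356, 127975 and 130764 CPM in WT. In CPM every C/C library was above every C/+ library, and every C/+ library above every WT library. On other scales the order was not complete: as a share of counts C/C 2 (14.95%) was below C/+ 1 (15.08%), and as TPM C/+ 3 (301724) was below WT 2 (314072) and WT 3 (317972). The log2 fold change was 0.45 (SE 0.13, interval 0.17 to 0.73, adjusted p = 0.0792, edgeR) between C/C and WT, 0.21 (SE 0.13, adjusted p = 0.386) against C/+, and for C/+ against WT it was 0.23 (SE 0.11, adjusted p = 0.284). The lowest value was that of WT 1, and without that library the fitted log2 fold changes against WT were 0.33 in C/C and 0.13 in C/+. With sex, read from Xist and Y-linked counts, as a further term, the C/C against WT change was 0.59 and passed the test (adjusted p = 0.0324, edgeR). The gene 715 bases beyond the 3' end of Sftpc on the same strand is Bmp1, a procollagen-cleaving protease gene. It averaged 323 CPM in C/C, 246 CPM in C/+ and 247 CPM in WT and was called between C/C and C/+ (log2 fold change 0.40, adjusted p = 0.0446, edgeR). Lgi3, 6604 bases away on the other side and itself a type 2 cell marker, averaged 1732, 1500 and 1713 CPM in C/C, C/+ and WT and was not called. The part of read-through from Sftpc in the Bmp1 value was not tested.

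Sftpb encodes surfactant protein B, without which lamellar bodies do not form properly (ENSMUSG00000056370, chromosome 6, 72304610 to 72314371, plus strand). Its level was 26099 and 30687 CPM in C/C, 21675, 24254 and 23535 CPM in C/+, and 25397, 23919 and 23515 CPM in WT. Both C/C libraries were above all libraries of the other 2 groups, and the C/+ and WT ranges overlapped. The log2 fold change was 0.29 between C/C and C/+ (SE 0.12, adjusted p = 0.183, edgeR), the one value of that comparison with an unadjusted p under 0.05, and 0.23 between C/C and WT (SE 0.12, adjusted p = 0.293). Between C/+ and WT it was -0.07 (SE 0.11, adjusted p = 0.763), and -0.04 without WT 1.

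The collectin genes Sftpa1 and Sftpd lie close together on chromosome 14 (41131782 to 41136452 on the plus strand and 41172214 to 41185149 on the minus strand), with the mannose-binding lectin gene Mbl1 between them. Sftpa1 had 27262 and 28055 CPM in C/C, 23674, 27033 and 24615 CPM in C/+, and 22507, 21700.3 and 23370 CPM in WT. As for Sftpc, the 3 groups did not overlap in CPM and C/C was the highest. On other scales this order was lost. As a share of counts, C/+ 2 (2.728%) was above C/C 1 (2.556%) and C/C 2 (2.566%). As TPM, Sftpa1 overlapped between the groups, with means of 20013 in C/C, 19817 in C/+ and 20617 in WT. Its log2 fold change was 0.30 between C/C and WT (SE 0.11, adjusted p = 0.151, edgeR), 0.14 between C/C and C/+ (adjusted p = 0.54) and 0.16 between C/+ and WT (adjusted p = 0.42). Sftpd had 5545 and 5393 CPM in C/C, against 4250.1 to 5379 CPM in C/+ and 4899 to 5324 CPM in WT. Its log2 fold changes of 0.11 (C/C against WT, -0.07 when scaled by total counts), 0.17 (C/C against C/+) and -0.06 (C/+ against WT) were not called, and without WT 1 the first was 0.06. The 2 neighbours thus did not share the order of the groups in CPM, since Sftpa1 was higher in each C/+ library than in WT and Sftpd was not. Over the 8 libraries Sftpa1 averaged 20166 TPM and Sftpd 4935 TPM, against 15.8 TPM for Mbl1 between them. Mbl2, the second mannose-binding lectin gene, had no count in any library.

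Napsa and Ctsh encode the proteases napsin A and cathepsin H, which trim the surfactant protein B and C precursors. Napsa ranged from 2927 to 3169 CPM in C/C, from 2542 to 3111 CPM in C/+ and from 2618 to 2916 CPM in WT, with log2 fold changes of 0.14 (C/C against WT), 0.12 (C/C against C/+) and 0.02 (C/+ against WT). Ctsh ranged from 1204 to 1212 CPM in C/C, from 1061 to 1213 CPM in C/+ and from 1063 to 1157 CPM in WT, with log2 fold changes of 0.12, 0.10 and 0.02. Over all 8 libraries the highest Ctsh value was 1.14 times the lowest, the smallest ratio among the 10 genes, and that of Sftpc was 1.60. None of these differences was called, and the signs against WT turn with the scaling: by total counts alone Napsa was at -0.03 and Ctsh at -0.05 in C/C against WT, and both at -0.03 in C/+ against WT. Without WT 1, Napsa was at 0.09 in C/C and -0.02 in C/+ against WT.

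Abca3 encodes the transporter that loads phospholipid into lamellar bodies (ENSMUSG00000024130, chromosome 17, 24351950 to 24410201, plus strand). It stood at 2443 and 2795 CPM in C/C, at 2512, 2758 and 2884 CPM in C/+, and at 3405, 3198 and 3292 CPM in WT. All 5 reporter libraries were below all 3 WT libraries, and C/C and C/+ overlapped. The log2 fold change was -0.33 between C/C and WT (SE 0.12, interval -0.59 to -0.08, adjusted p = 0.13, edgeR) and -0.28 between C/+ and WT (SE 0.10, adjusted p = 0.164), with -0.05 between C/C and C/+ (SE 0.12, adjusted p = 0.859). Leaving out WT 1 gave -0.33 and -0.26 against WT.

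Slc34a2 encodes the type 2 cell's sodium-phosphate cotransporter, which clears phosphate released from surfactant lipid (ENSMUSG00000029188, chromosome 5, 53038081 to 53071664, plus strand). Its level was 10553 and 12045 CPM in C/C, 10041, 12348 and 11557 CPM in C/+, and 14155, 12862 and 14073 CPM in WT. The pattern was that of Abca3: all 5 reporter libraries lay below the 3 WT libraries. The log2 fold change was -0.28 between C/C and WT (SE 0.13, adjusted p = 0.235, edgeR), -0.28 between C/+ and WT (SE 0.11, adjusted p = 0.21) and -0.00 between C/C and C/+ (adjusted p = 0.996). Scaling by total counts, which put the median of all genes at -0.20 in C/C against WT where TMM had it at -0.03, put Abca3 at -0.51 and Slc34a2 at -0.45 there and called both (lowest adjusted p = 0.0266, edgeR).

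Lamp3 encodes a membrane protein of lamellar bodies (DC-LAMP). It had 2975 and 3409 CPM in C/C, 2370.03, 2721 and 3425 CPM in C/+, and 3144, 2780 and 2912 CPM in WT. Its spread within C/+, an SD of 18.9% of the mean, was the widest of any member in any group, and all 3 comparisons overlapped. Its log2 fold changes were 0.12 (C/C against WT, -0.06 when scaled by total counts), 0.17 (C/C against C/+) and -0.05 (C/+ against WT, -0.01 without WT 1). Lpcat1 encodes the acyltransferase that remodels phosphatidylcholine to the disaturated form of surfactant. It had 2561 and 2453 CPM in C/C, 2547, 2577 and 2500.4 CPM in C/+, and 2512, 3028 and 3039 CPM in WT, so that WT 1 lay with the reporter libraries and the other WT libraries above them. The log2 fold changes of Lpcat1 were -0.19 in C/C against WT (adjusted p = 0.378, edgeR), -0.02 in C/C against C/+ and -0.17 in C/+ against WT (adjusted p = 0.409). Without WT 1 they were -0.29 in C/C and -0.26 in C/+ against WT.

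**Figure D2:**
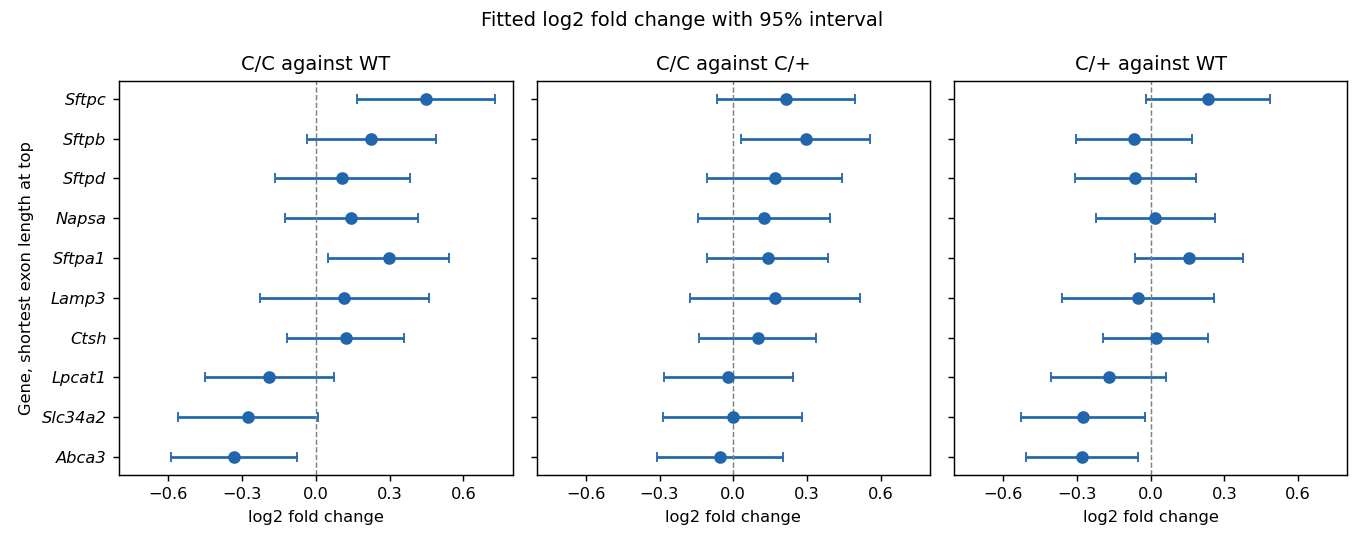
Fitted log2 fold change (x axis, edgeR) of each gene with its 95% interval in C/C against WT, C/C against C/+ and C/+ against WT; genes run down the page from the shortest to the longest exon length. Against WT, Sftpc at the top is highest (0.45 in C/C and 0.23 in C/+) and Abca3 at the bottom lowest (-0.33 and -0.28).

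Counted in CPM by whether the libraries of 2 groups overlapped, 6 of the 10 genes were higher in both C/C libraries than in all WT libraries. In this comparison 2 were lower and 2 overlapped. Of all tested genes, 20.8% were higher and 22.6% lower in this way, 43.3% in all. In C/C against C/+, 4 members were higher, 0 lower and 6 overlapped, beside 18.1% higher and 20.2% lower of all genes (38.3%). In C/+ against WT, 2 were higher, 2 lower and 6 overlapped, beside 14.1% and 10.7% of all genes (24.8%). The comparisons with WT share the WT libraries and those with C/+ share the C/+ libraries, so their directions are not independent. The counts also depend on the scale. Of the 6 genes higher in C/C than in WT, only Sftpc was so as TPM. Sftpb and Sftpa1 then overlapped, and Sftpd, Napsa and Ctsh were lower in both C/C libraries than in all WT libraries. Lamp3 and Lpcat1 were lower as TPM too, beside Abca3 and Slc34a2.

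The share of each library's counts taken by the 10 genes was 23.3% and 23.1% in C/C, 22.4%, 22.4% and 21.3% in C/+, and 19.6%, 21.3% and 21.6% in WT. The group means were 23.2% ± 0.149 in C/C (SD, n = 2), 22.03% ± 0.638 in C/+ (SD, n = 3) and 20.8% ± 1.09 in WT (SD, n = 3), and the 95% Wilson intervals of single libraries, which cover counting error only, were at most 0.0194 percentage points to either side. Both C/C libraries were above all others, and C/+ and WT overlapped. The difference between C/+ and WT was 1.20 percentage points, and 0.579 without WT 1, and that between C/C and WT 2.37 and 1.74. Sftpc made up most of it, at 15.3% ± 0.479 in C/C, 14.3% ± 0.703 in C/+ and 12.6% ± 1.32 in WT. The sum of the 6 genes that are not surfactant proteins ran the other way. It was 2.21% ± 0.0878 in C/C, 2.35% ± 0.158 in C/+ and 2.79% ± 0.0994 in WT, with every reporter library below every WT library. Slc34a2 made up most of this fall, at 1.05% in C/C, 1.14% in C/+ and 1.43% in WT. The 6 did not all move alike: in CPM, Slc34a2, Abca3 and Lpcat1 were fitted lower in C/C than in WT. Napsa, Ctsh and Lamp3 were fitted higher (log2 fold changes of 0.14, 0.12 and 0.12, none called). With Sftpc taken out of numerator and total, the other 9 genes held 9.33% in C/C, 8.99% in C/+ and 9.39% in WT, and the groups overlapped. These sums are given without a test, because the genes were chosen with results of these data known and an exact permutation test over 2 or 3 libraries a group cannot go below p = 0.1.

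Relative to the rest of the family, Sftpc stood higher in the reporter libraries. There were 2.04 and 1.84 Sftpc counts per count of the other 9 genes in C/C, 2.07, 1.74 and 1.80 in C/+, and 1.31, 1.68 and 1.64 in WT. All 5 reporter libraries were above the 3 WT libraries, and C/C and C/+ overlapped. Against Abca3 alone, a pair picked after the values were seen, the ratio was 68.2 and 58.5 in C/C, 59.1, 51.2 and 47.6 in C/+, and 30.6, 40.0 and 39.7 in WT. The ratio to Sftpb alone did not follow this order: its log2 was 2.68 and 2.41 in C/C, 2.78, 2.54 and 2.54 in C/+, and 2.04, 2.42 and 2.48 in WT, so that C/C 2 lay below WT 2 and WT 3. Without WT 1 the log2 difference of the ratio to the other 9 genes was 0.22 between C/C and WT, against 0.34 with it, and 0.17 between C/+ and WT, against 0.28 with it.

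**Figure D3:**
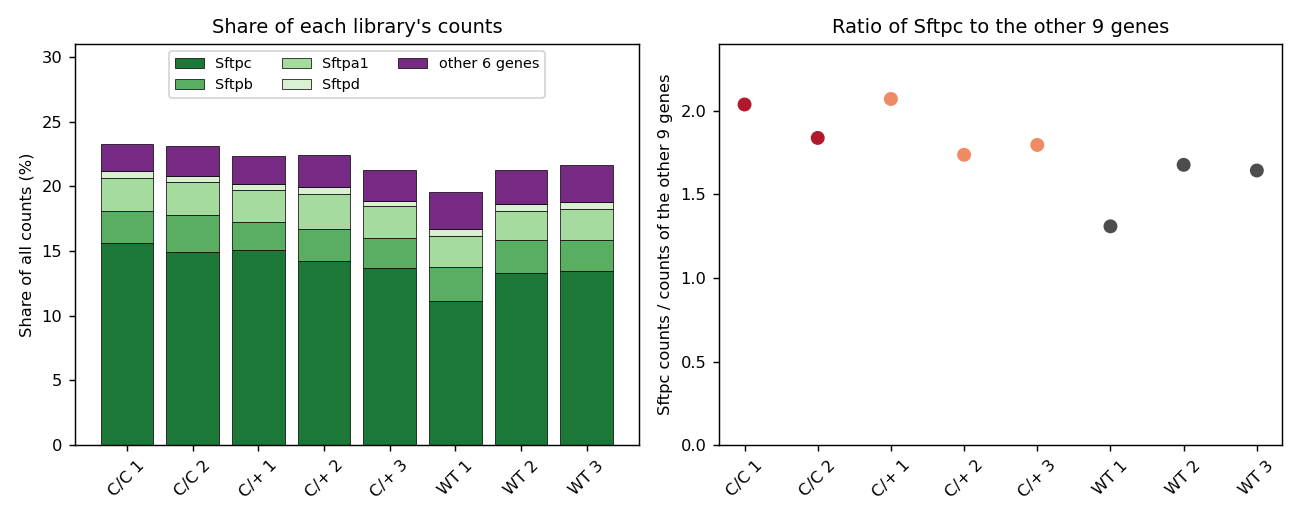
Left, share of each library's counts in percent taken by Sftpc, Sftpb, Sftpa1, Sftpd and the other 6 genes (stacked bars, one per library); right, Sftpc counts divided by the counts of the other 9 genes, one point per library. The stack is highest in the 2 C/C libraries (23.3% and 23.1%), and the ratio is lowest in the 3 WT libraries (1.31 to 1.68).

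Transcript length moved with these differences. Over all tested genes, the median log2 fold change between C/C and WT was 0.18 for the 738 genes with exons of up to 1000 bases in all and -0.18 for the 3227 genes over 7000 bases, with the classes between them in order from 2000 bases on. Between C/+ and WT it was 0.34 in the shortest and -0.11 in the longest class, and between C/C and C/+ it was -0.13 and -0.04. WT 1 carried the steepest slope, with a median of -0.26 for short and 0.17 for long genes relative to the mean of the 8 libraries. Without it, the medians of the shortest and longest class were 0.10 and -0.13 between C/C and WT, and 0.24 and -0.06 between C/+ and WT. The 10 genes span 1034 bases (Sftpc) to 9374 bases (Abca3), and the 3 lowest against WT, Lpcat1 (4632 bases), Slc34a2 (5013 bases) and Abca3, are the 3 longest. Set against the median of its own length class, Sftpc was 0.26 higher between C/C and WT and 0.06 higher between C/+ and WT, where its fitted changes were 0.45 and 0.23. Relative to their classes, Abca3 was at -0.15 and -0.16 and Slc34a2 at -0.19 and -0.21. With a scaling per length class, added after the values were seen, the C/C against WT changes were 0.27 for Sftpc, 0.21 for Sftpa1, -0.19 for Abca3 and -0.23 for Slc34a2, and no member was called (lowest adjusted p = 0.22, edgeR). In that fit Sftpc was at 0.06 between C/+ and WT. Per length, as TPM, the share of the 10 genes was 39.6% ± 0.972 in C/C, 37.3% ± 0.751 in C/+ and 37.9% ± 1.37 in WT, so that C/+ was no longer above WT.

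**Figure D4:**
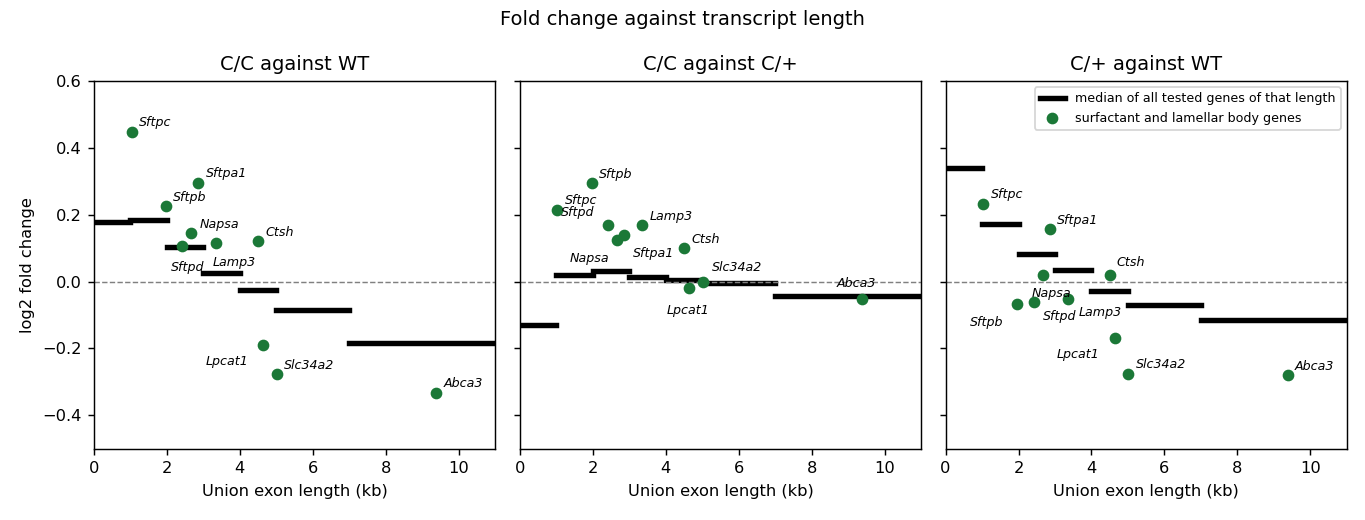
Fitted log2 fold change (y axis) against summed exon length in kb (x axis) in the 3 comparisons; points are the 10 genes and black bars the median of all tested genes of each length class. In both comparisons with WT the bars end lower than they start (0.18 in the shortest and -0.18 in the longest class for C/C, 0.34 and -0.11 for C/+), and Sftpc, the shortest of the 10 genes, is highest and Abca3, the longest, lowest.

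Other measures moved with the groups as well. Mitochondrially encoded genes took 4.92% and 6.67% of counts in C/C, 3.94% to 6.40% in C/+ and 2.90% to 3.31% in WT, and without them the 10 genes held 24.6% in C/C, 23.2% in C/+ and 21.5% in WT. The summed level of 8 club cell markers was 490 to 721 CPM in C/C, 5109 to 9450 CPM in C/+ and 458 to 1100 CPM in WT, with Kcnj16 at 0 throughout, and 6 of the 8 were called higher in C/+ than in WT. For 9 endothelial markers it was 51.1 to 56.8, 470 to 803 and 63.5 to 239 CPM, for 7 mesenchymal markers 14.1 to 17.3, 79.5 to 217 and 16.1 to 39.6 CPM, and for 6 mesothelial markers 84.8 to 85.4, 115 to 265 and 49.7 to 81.2 CPM, each in C/C, C/+ and WT. All 9 endothelial, 5 of the 7 mesenchymal and 4 of the 6 mesothelial markers were called higher in C/+ than in WT, and 9, 1 and 3 of them without WT 1. The C/+ libraries thus had the highest sums for all 4 of these lists. The mesothelial sum was mostly Krt19 in C/C and WT, at means of 78.3 and 51.8 CPM. Msln, Upk3b, Wt1, Lrrn4 and Gpm6a were fitted lower in C/C than in WT. The median log2 fold change of the mesothelial list was -1.24 there, and no marker of it was called. The 7 type 2 cell markers, 6 of which are members, summed to 273300 to 280400 CPM in C/C, 238500 to 249600 CPM in C/+ and 202500 to 231900 CPM in WT, without overlap. Most of this sum was Sftpc, at means of 165119, 142305 and 121031 CPM, so it is not a measure apart from the members. Abca3 and Slc34a2, also in it, were fitted lower in C/C than in WT. The 8 ciliated cell markers summed to 258 to 265, 211 to 289 and 236 to 278 CPM in C/C, C/+ and WT. This sum was mostly Tubb4b, at means of 215, 173 and 180 CPM. The median log2 fold change of the 8 markers was -1.01 in C/C against WT, and all but Tubb4b and Dynlrb2 were fitted lower there. Foxj1, the ciliogenesis factor, and Ccdc39 were called lower in that comparison (lowest adjusted p = 0.0354, edgeR). The 8 type 1 cell markers summed to 2633 to 3038, 2246 to 3301 and 2607 to 3449 CPM. Their median log2 fold change was -0.26 in C/C against WT, where Clic5 was called lower (adjusted p = 0.0488, edgeR, and 0.0645 without WT 1). Rtkn2, at group means of 2.27 to 5.68 CPM, was called lower in C/+ than in WT (adjusted p = 0.0181, edgeR). Between C/C and C/+, Pdpn was called lower and Rtkn2 higher. The 6 leukocyte markers summed to no more than 8.85 CPM and the 6 alveolar macrophage markers to no more than 10.7 CPM in any library. Immediate early genes, which dissociation can induce, summed to 11800 and 15010 CPM in C/C, 3676 to 6179 CPM in C/+ and 2820 to 8411 CPM in WT. The part of these in the surfactant gene values was not tested.

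The genes around the family were read from lists chosen with earlier results of these data known. For all 14906 genes, calls made up 1.62% (higher) and 1.36% (lower) in C/C against WT, 1.75% and 5.33% in C/C against C/+, and 3.42% and 0.503% in C/+ against WT. Surfactant lipid synthesis, with 22 genes tested, had 1 called higher and 0 lower in C/C against WT, 4 higher and 1 lower in C/C against C/+, and 0 higher and 3 lower in C/+ against WT. Its medians were -0.01, 0.16 and -0.04. Pcyt1a, the rate-limiting enzyme of phosphatidylcholine synthesis, averaged 112 CPM in C/+ and 164 CPM in WT (log2 fold change -0.55, adjusted p = 0.0199, edgeR). Scd2, a stearoyl-CoA desaturase, averaged 1074 and 1666 CPM in C/+ and WT (-0.63, adjusted p = 0.02), and Srebf1, a regulator of fatty acid synthesis, 283 and 380 CPM (-0.42, adjusted p = 0.0427, and 0.066 without WT 1). Between C/C and C/+, the choline kinase gene Chka was at 353 against 240 CPM (0.56, adjusted p = 0.0184) and rose against WT too (0.55, adjusted p = 0.04). Lpin2, a phosphatidate phosphatase, averaged 454 CPM in C/C and 301 CPM in C/+ (0.59, adjusted p = 0.0318), Agpat2, an acyltransferase, 100.5 and 76.0 CPM (0.40, adjusted p = 0.0362), and Insig1, a sterol-sensitive brake on lipid synthesis, 167 and 119 CPM (0.49, adjusted p = 0.0325). The gene called lower, the elongase Elovl6, named after its values were seen, was near the limit of detection at 0.036 CPM in C/C and 0.519 CPM in C/+. Fasn, fatty acid synthase, averaged 2903 CPM in C/C, 2514 CPM in C/+ and 3406 CPM in WT and was not called; it was picked after its values were seen.

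Genes of folding and processing are needed to bring the surfactant protein precursors through the endoplasmic reticulum. Of 13 tested, 2 were called higher and 0 lower in C/C against WT, 2 and 0 in C/C against C/+, and 0 in C/+ against WT (medians 0.11, 0.14 and -0.07). Dnajb9, a co-chaperone of the endoplasmic reticulum that binds mutant surfactant protein C, averaged 99.9 CPM in C/C, 47.4 CPM in C/+ and 55.8 CPM in WT, a log2 fold change of 1.07 against C/+ (adjusted p = 0.00689, edgeR) and 0.84 against WT (adjusted p = 0.0442). Hspa5, the chaperone BiP, averaged 671 CPM in C/C, 437 CPM in C/+ and 461 CPM in WT. It was called against C/+ (0.62, adjusted p = 0.0163) and not against WT (0.54, adjusted p = 0.0521). Sdf2l1, a cofactor of BiP, averaged 11.8 CPM in C/C and 6.13 CPM in WT (0.93, adjusted p = 0.0485). Without WT 1 neither Dnajb9 (adjusted p = 0.0747) nor Sdf2l1 (adjusted p = 0.0729) was called against WT. Both C/C libraries also had the highest sums of immediate early genes, whose part in these values was not tested.

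Lamellar body biogenesis and secretion genes (21 tested) gave 1 call: P2ry2, the ATP receptor that stimulates surfactant secretion, was lower in C/+ than in WT at 14.5 and 23.9 CPM (log2 fold change -0.72, adjusted p = 0.0156, edgeR), with 19.4 and 20.6 CPM in the C/C libraries. Neither Atp11a, a phospholipid flippase gene, nor Adgrf5, a receptor gene that restrains the surfactant pool, was called in any comparison. The list's medians were 0.12 in C/C against WT, 0.15 in C/C against C/+ and -0.08 in C/+ against WT. Of 13 other type 2 cell markers, 1 was called: Lyz1, a lysozyme gene that can share reads with its near copy Lyz2, at 4366 CPM in C/+ and 2416 CPM in WT (0.85, adjusted p = 0.0302). Cxcl15, a type 2 cell chemokine gene, averaged 11560 CPM in C/C, 11510 CPM in C/+ and 9080 CPM in WT, which was not called (adjusted p = 0.117 and 0.101 against WT).

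The 9 transcription factors of surfactant genes gave 0 calls in the 3 comparisons. Nkx2-1 averaged 629 CPM in C/C, 653 CPM in C/+ and 627 CPM in WT, with log2 fold changes between -0.05 and 0.06. Etv5, which maintains type 2 identity, averaged 586, 637 and 730.5 CPM in C/C, C/+ and WT and was not called (adjusted p = 0.176 between C/C and WT, edgeR).

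Relatives of the members by gene family were less abundant than the member in each case read. Per length, Lamp3 averaged 2072 TPM, against 607 TPM for Lamp1, and Ctsh 593 TPM, against 209 TPM for Ctsb and 395 TPM for Ctsz. Sftpb averaged 29546 TPM, against 92.5 TPM for its saposin-like relative Psap, and Napsa 2499 TPM, against 287 TPM for Ctsd. Lpcat1 averaged 1348 TPM, against 66.2 TPM for Lpcat3, and Sftpc 313382 TPM, against 551 TPM for Itm2b, which shares the BRICHOS domain. Slc34a1, the kidney cotransporter, had no count, and Slc34a3 had 7 counts in all. Of 23 tested relatives of 30 listed, Abca1, a cholesterol exporter, was called lower between C/C and WT at 10.8 and 21.8 CPM (-1.01, adjusted p = 0.0392, edgeR), and the scavenger collectin Colec12, at no more than 2.64 CPM, was higher in C/+ than in either other group (adjusted p = 0.0116 against WT). Abca17, 882 bases from Abca3 on the opposite strand, averaged 14.7 CPM in C/C, 19.3 CPM in C/+ and 23.5 CPM in WT, the order of Abca3, and was not called (log2 fold change -0.67 between C/C and WT, adjusted p = 0.0625, edgeR). Genes on the opposite strand overlap Napsa, Abca3 and Slc34a2, and how the counting treated strand is not given in the sources used here. Those in the table were low: at Abca3, D330041H03Rik had 186 counts and the small RNA gene Gm25618 2 counts, and at Slc34a2 Gm17182 had 3668 counts over the 8 libraries.

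Likeness of pattern was measured as the root mean square difference of centred log2 CPM over the 8 libraries, among the 1439 genes that averaged 100 CPM or more. The closest pair of members was Sftpd and Napsa, at 0.0518, place 2 among all genes ranked for Sftpd and place 5 for Napsa. Next were Abca3 and Slc34a2 at 0.0569, place 2 for Slc34a2 and place 4 for Abca3. For every member, also those of these 2 pairs, the nearest gene lay outside the family. Sftpc had Ssr2 (0.041), Ccz1 and Tceal9 nearest, and its closest member, Sftpa1, came only at place 136 (0.131). Sftpb had Plekhb1, Sf3b2 and Pgs1, Sftpa1 had Atp6v1e1, Ctsb and Cope, and Lamp3 had Ankrd13a, Muc1 and Mia2. Ctsh had Nrd1, Gpi1 and H2afy, Lpcat1 had Rassf3, Snd1 and Spop, and the nearest genes to Abca3 and Slc34a2 outside the family were Iqgap1 and Myo1d. These are descriptions over 8 libraries that share groups, depth and length composition.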

How the data were processed

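The deposited table holds whole-number read counts per gene, not normalised, for 43432 mouse Ensembl genes in 8 libraries. Per the labels' protocols, RNA was extracted with a miRNeasy micro kit with DNase and made into stranded mRNA libraries. The submitters' processing notes name STAR 2.4.2a, DESeq2 and GRCh38, which is a human build. How reads were counted, and with which strand setting, is not given in the sources used here. Symbols, positions and exon lengths came from GENCODE M21 on GRCm38 (42548 genes with a symbol, 884 without), and promoter sequence from RefSeq (GRCm38.p6).

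From these counts, filterByExpr by group left 14906 genes, libraries were scaled by TMM, and 1 edgeR 4.0.16 quasi-likelihood model (R 4.3.3, a mean per group, dispersion fit of older versions) was fitted to all 8 libraries and tested two-sided. A gene was called at a Benjamini-Hochberg adjusted p under 0.05 over all tested genes. TPM used summed exon length, and the share intervals are Wilson intervals. Depth was high enough that the spread between libraries, not counting error, sets the precision for the 10 genes.

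Named genes were the 10 members, up to 4 called genes per list and comparison (otherwise up to 2 by level), the 3 genes most alike each member, and neighbours; Fasn, Elovl6 and family relatives without a call were named after their values were seen. The members and lists were chosen with earlier results of these data known. The fit was tested on simulated data. Libraries of a group were compared for duplicates, and none agreed within noise (chi-square of 12.2 to 73.5 per gene). Alternatives were other scalings, filters, model terms and tests (DESeq2 1.42.0), and leaving out each library. Planned permutation tests of the summed shares and ratios are not printed, since the genes were not chosen independently of these values.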

Additional observations from a re-analysis of the deposited data

How the results depend on the processing

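Members called were 0 in each comparison under every alternative run, except that DESeq2 called 3 in C/C against WT and 1 in C/+ against WT, and that in C/C against WT total counts alone called 2 and a sex term 1. Calls over all genes moved more. In C/C against WT (444) they were 1229 by total counts (12.1% of them higher, against 54.3%), 1456 without the low-count filter, 1348 with a sex term, 259 with the scaling per length class, 1476 by DESeq2, and 30 to 782 without single libraries. In C/C against C/+ (1056) they were 1614 without the filter, 1609 by DESeq2 and 185 to 1308 without single libraries, and by total counts 126 of 1145 were higher, against 261. In C/+ against WT (585) they were 1299 without the filter, 1700 with a sex term, 909 with the newer edgeR dispersion fit, 356 with these groups alone, 1263 by DESeq2 and 103 to 729 without single libraries, with 73.6% higher by total counts against 87.2%. The lowest counts left out C/C 1 or C/+ 1. The fit with 1 library in a group assumes that it varies like the others.

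The replicate numbers do not pair the libraries: deviations of same-numbered libraries correlated at -0.21 to 0.087. A replicate block gave 176, 799 and 457 calls and 0 members, and put Slc34a2 in C/C against C/+ at 0.016.

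Signs of small member changes turned. By total counts, Sftpd was at -0.066, Napsa at -0.028, Ctsh at -0.053 and Lamp3 at -0.060 in C/C against WT, Ctsh at -0.021 in C/C against C/+, and Napsa at -0.032 and Ctsh at -0.031 in C/+ against WT. The scaling per length class gave Sftpd -0.0041 in C/C against WT, Abca3 0.013 in C/C against C/+ and Napsa -0.070 in C/+ against WT. A sex term put Lamp3 at -0.056 in C/C against WT and Lpcat1 at 0.025 in C/C against C/+. Slc34a2 in C/C against C/+ was at 0.0040 with DESeq2 size factors and by DESeq2, 0.015 without the filter and 0.014 with these groups alone. Without single libraries, C/+ against WT ranged from -0.15 to 0.027 for Sftpd, -0.071 to 0.083 for Napsa, -0.035 to 0.056 for Ctsh and -0.21 to 0.062 for Lamp3, and C/C against C/+ from -0.15 to 0.046 for Abca3, -0.096 to 0.096 for Slc34a2 and -0.046 to 0.015 for Lpcat1. The cause was not tested.

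The difference in share, 2.37, 1.17 and 1.20 percentage points in C/C against WT, C/C against C/+ and C/+ against WT, became -0.0593, 0.344 and -0.404 without Sftpc. Without WT 1 it was 1.74 in C/C against WT and 0.579 in C/+ against WT. As a share of TPM it was 2.33 in C/C against C/+ and -0.567 in C/+ against WT. The log2 ratio of Sftpc became 0.79, 0.27 and 0.52 against Abca3 alone and 0.73, 0.22 and 0.52 against Slc34a2 alone, and was 0.23, -0.076 and 0.31 against Sftpb alone, choices made after seeing the data.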
